A study of Mus musculus with 6 samples.

Results

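Mitochondrial carriers of the SLC25 family were examined in B16F10 cells, an established line of mouse melanoma cells. Carriers were taken by symbol, as every gene named Slc25a with a number, or Ucp1, Ucp2 or Ucp3, which gave 50 of the 27179 genes in the deposited table. RNA had been sequenced from 3 libraries of wild-type cells treated for 6 h with 0.01% ozonated olive oil (OZO) and from 3 libraries of cells treated for 6 h with 0.01% olive oil (OLO), the oil from which OZO is made. Values of single libraries were not used here, and the study describes its B16F10 expression data as coming from independent experiments, while the labels do not say whether replicates were separate cultures. The value analysed was the authors' average over all 6 libraries, so it carries no SD, and the levels below describe cells of both treatments together. The fold changes and p-values of OZO against OLO in the table are the authors' own comparison and were not used, so no carrier is described here as higher or lower after OZO.

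SLC25 proteins are small carriers, mostly of the inner mitochondrial membrane, each built from 3 similar repeats of a pair of membrane-spanning helices. They move ADP, ATP, phosphate, carboxylic acids, amino acids, nucleotides, cofactors and protons between the cytosol and the matrix, and so link oxidative phosphorylation to the rest of metabolism. A few members lie in other membranes, such as Slc25a17 in peroxisomes and Slc25a46 in the outer mitochondrial membrane. Substrate classes were assigned from general knowledge of the family, and 8 members whose substrate is not settled were kept as a class of their own.

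All 50 carriers had at least 1 read, whereas 6025 of all 27179 genes had none. Levels were in CPM, the reads of a gene scaled to library size, and 1 CPM stood for 19.6 reads per library. At this level or more, here taken as present, were 39 of the carriers (78.0%), against 43.7% of all genes and 56.2% of the 21154 genes with reads. The median carrier had 19.1 CPM, and 73.1% of all genes lay below it. Genes of carrier import and related inner membrane transport, a list of 20, were all at 1 CPM or more, with a median of 43.0 CPM. All 7 melanocyte markers were present, from 109 CPM (Sox10) to 7052 CPM (Dct), while the 4 leukocyte and 4 epithelial markers lay under 1 CPM. Of 3 endothelial markers, 1 was at 1 CPM or more (Pecam1, 1.21 CPM), and of 4 fibroblast markers 3 were, the highest being Pdgfra at 3.28 CPM. The part of such cells or of RNA from them in the carrier levels was not tested.

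**Figure D1:**
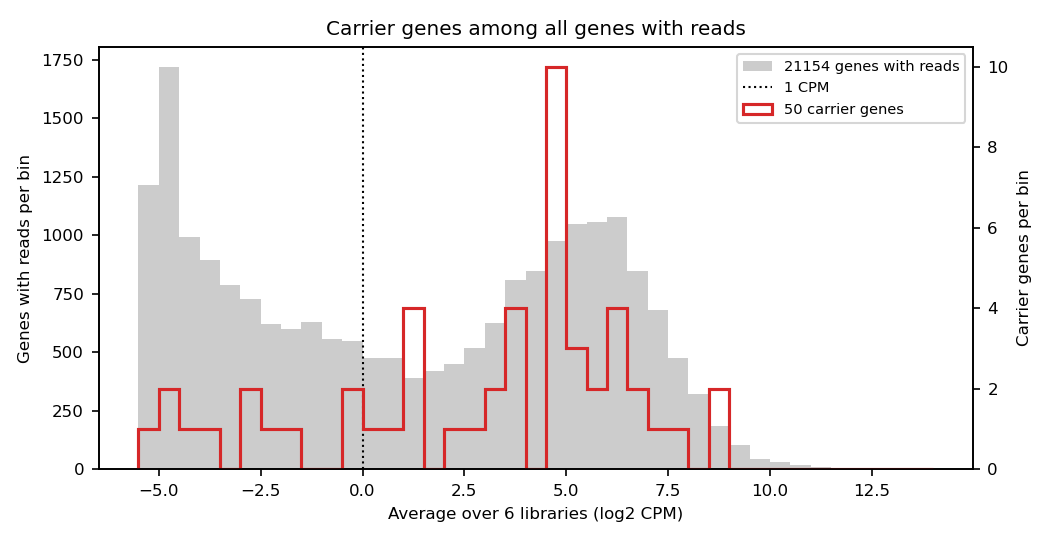
Histogram of the average log2 CPM over 6 libraries in bins of 0.5, with the 21154 genes with reads in grey (left axis) and the 50 carriers as a red line (right axis); the dotted line marks 1 CPM. Of the carriers, 39 lie to the right of that line and 11 to its left, and none lies above 500 CPM.

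Levels of carriers were set against each other per length, as CPM per kb of exon, where the length was the union of all exons annotated for the gene in GENCODE. Because that union takes in every annotated isoform, the value over the exons of transcripts matched to a RefSeq mRNA is given beside it where a comparison turns on it. Between 4 definitions of length, which also took the longest and the median transcript, the level of 38 of the 50 carriers moved by over 1.5-fold and that of 28 by over 2-fold, so levels printed once hold for the union of exons, and such values side by side give no order that holds for every length. The summed carrier level was uneven. The first 3 carriers held 62.7% of the summed CPM per kb and the first 10 held 83.0%. Slc25a5, the highest, stood 73.4-fold above the median carrier on the same scale, or 38.3-fold with the median transcript as length.

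The ADP/ATP carriers, which export ATP made in the matrix in exchange for ADP, stood first. Slc25a5 (Entrez 11740, ENSMUSG00000016319, chromosome X, 36795651 to 36798807, plus strand) had 304 CPM per kb, or 403 over RefSeq-matched exons, and rested on 9819 reads per library. Slc25a4 (ENSMUSG00000031633, chromosome 8) had 162 CPM per kb, or 198 over RefSeq-matched exons. Slc25a5 was 1.87-fold higher than Slc25a4 per kb, and between 1.87-fold and 2.12-fold higher under the 4 definitions of length. The third member of the class, Slc25a31, is known mainly from the testis and had 0.266 CPM, which corresponds to at least 31 reads over the 6 libraries. Together the 3 genes held 57.1% of the summed CPM per kb of all carriers and 37.2% of the summed CPM, a share of reads in which long genes weigh more. The promoters of the 3 genes are shown because their transcripts span the whole range from the highest carrier to one under 1 CPM. They are RefSeq sequences of GRCm38.p6, from 250 bases before to 50 after the start of transcription, written 5′ to 3′ along the strand of the gene, with CG dinucleotides in capitals.

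Slc25a5, chrX:36795347-36795646, plus strand: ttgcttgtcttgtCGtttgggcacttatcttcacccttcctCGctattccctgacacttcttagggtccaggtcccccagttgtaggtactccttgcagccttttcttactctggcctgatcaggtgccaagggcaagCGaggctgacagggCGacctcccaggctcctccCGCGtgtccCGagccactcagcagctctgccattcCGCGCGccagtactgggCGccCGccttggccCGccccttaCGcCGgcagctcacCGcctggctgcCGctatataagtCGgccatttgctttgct
Slc25a4, chr8:46211013-46211312, minus strand: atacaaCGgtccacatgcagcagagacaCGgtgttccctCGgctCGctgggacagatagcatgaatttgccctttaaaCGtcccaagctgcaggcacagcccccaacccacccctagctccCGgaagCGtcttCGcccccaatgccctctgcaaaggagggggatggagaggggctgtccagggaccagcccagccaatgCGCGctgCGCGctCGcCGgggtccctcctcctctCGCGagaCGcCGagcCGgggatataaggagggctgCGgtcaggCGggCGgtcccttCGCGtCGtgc
Slc25a31, chr3:40708621-40708920, plus strand: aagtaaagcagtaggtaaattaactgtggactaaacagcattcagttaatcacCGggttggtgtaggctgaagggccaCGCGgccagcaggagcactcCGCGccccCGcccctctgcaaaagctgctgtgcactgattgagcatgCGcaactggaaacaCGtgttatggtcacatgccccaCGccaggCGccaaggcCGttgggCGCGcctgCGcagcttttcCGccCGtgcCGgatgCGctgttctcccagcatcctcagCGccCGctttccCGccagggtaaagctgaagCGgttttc

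Slc25a31, the lowest of the 3, held 22 CG dinucleotides in this window, more than the 18 of Slc25a5 and fewer than the 25 of Slc25a4. RefSeq windows were found for 39 of the 50 carriers. In the 30 of them at 1 CPM or more the median was 18.5 CG (range 4 to 47, averaged over the windows of a gene), and in the 9 under 1 CPM it was 15 (range 1 to 22), against a median of 7 over all 32851 windows. The ranges overlapped, so this count did not separate well expressed carriers from the others. Short motifs were then counted on both strands of the 49 windows of carriers. The antioxidant response element TGACNNNGC, the core bound by NRF2, was found in 13 of them (26.5%), against 12.4% of all windows. These windows belonged to 10 of the 39 genes, and Slc25a14 and Slc25a23 each held it in more than a single window. The other genes were Slc25a3, Slc25a5, Slc25a25, Slc25a33, Slc25a38, Slc25a40, Slc25a53 and Ucp2. The E-box form CACGTG was found in 8 windows of 7 genes (16.3%, against 7.15% of all). The shorter ACGTG, which is part of CACGTG, was found in 13 windows (26.5%, against 19.6%). The ETS core CCGGAAG was in 7 windows (14.3%, against 8.86%), CCAAT in 22 (44.9%, against 37.4%) and TATAAA in 2 (4.08%, against 13.6%). These counts describe letters only, and windows of one gene can overlap. Shares by gene over all genes were not computed, and the windows compared were not matched for CG content.

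Phosphate for ATP synthesis enters the matrix through Slc25a3, which also carries copper. It was the third carrier on the union of exons, with 45.6 CPM per kb, and the value over RefSeq-matched exons was 157. With the longest transcript as length it stood at 62.6, behind Slc25a39 at 64.9. Slc25a24, Slc25a23 and Slc25a25 exchange ATP-Mg for phosphate under the control of calcium. They had 8.40, 4.36 and 3.14 CPM per kb, and over RefSeq-matched exons 8.40, 6.86 and 5.99. With the median transcript their order turned, at 14.1, 28.6 and 14.8. The related Slc25a41, which lacks the calcium-binding part, had a total of 2 or 4 reads in the 6 libraries. These levels placed Slc25a3 well above the other 4 genes of its class under all 4 lengths.

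**Figure D2:**
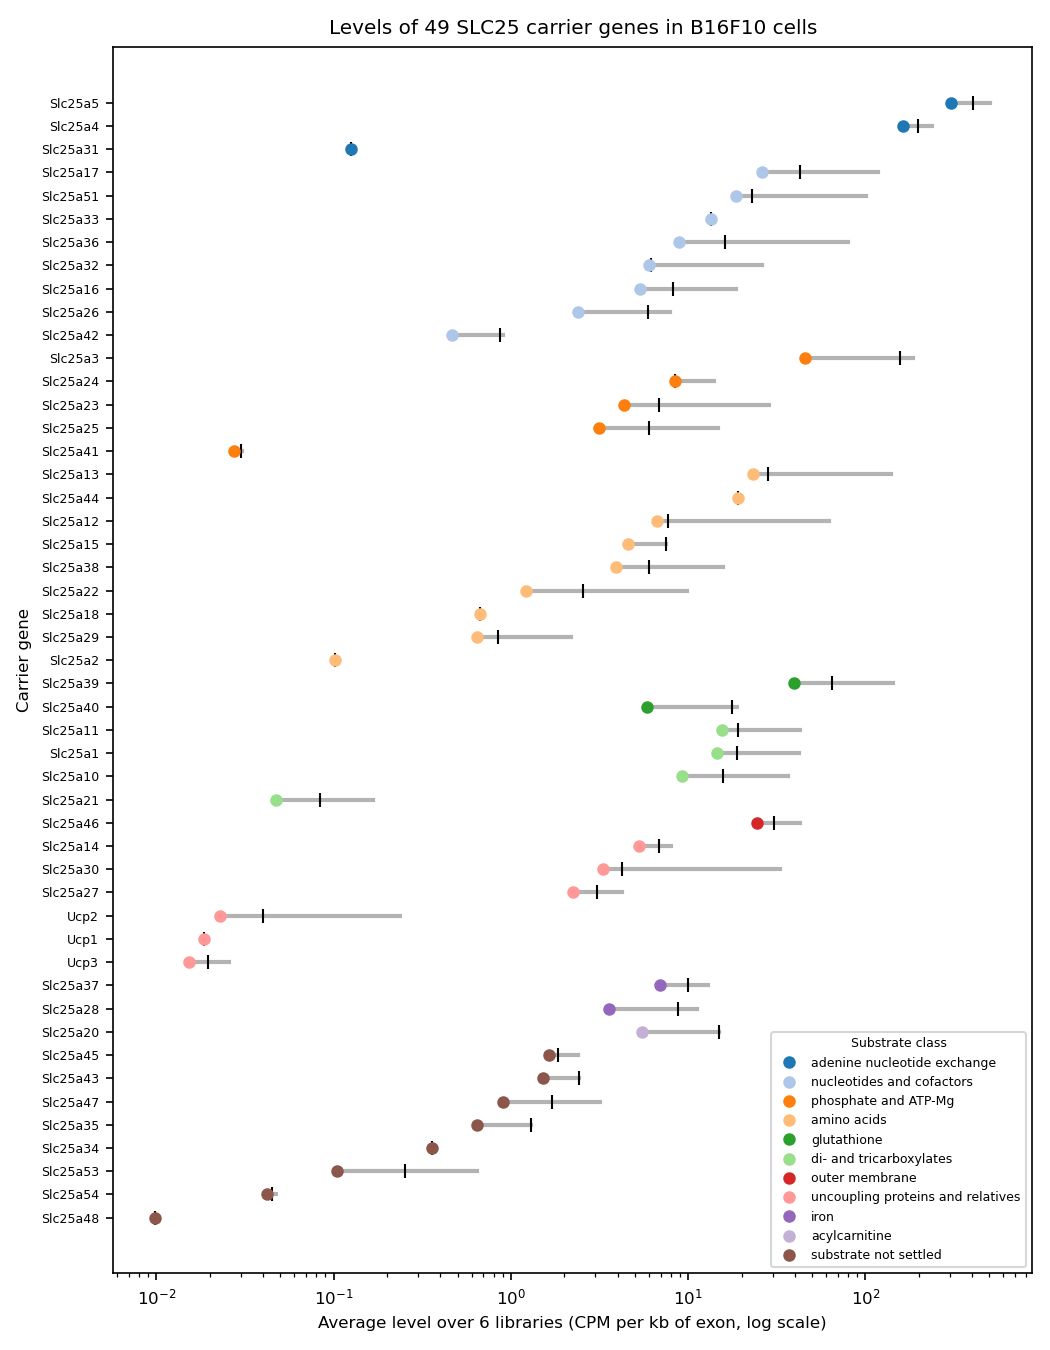
Average level of 49 carriers over 6 libraries in CPM per kb of exon (log scale), grouped and coloured by substrate class; points use the union of exons, black ticks the exons of RefSeq-matched transcripts, and grey bars span the 4 definitions of length. Slc25a5 and Slc25a4 lie to the right of all others under the union of exons, and the genes with fewest reads, such as Ucp1, Slc25a48 and Slc25a41, whose values rest largely on the 0.5 reads added to each library, lie at the left.

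Carriers of cofactors and nucleotides were present throughout, with 9 of 9 genes at 1 CPM or more. Slc25a17, the peroxisomal carrier of coenzyme A and related cofactors, was highest at 26.0 CPM per kb, followed by the mitochondrial NAD carrier Slc25a51 at 18.5 CPM per kb. The pyrimidine nucleotide carriers Slc25a33 and Slc25a36 had 13.4 and 8.83 CPM per kb. Their order turned over RefSeq-matched exons, with 13.4 and 16.2. Slc25a32 (folate and FAD), Slc25a16 and Slc25a26 (S-adenosylmethionine) had 6.00, 5.36 and 2.39 CPM per kb. Over RefSeq-matched exons Slc25a16 was the highest of them, with 6.18 for Slc25a32 and 8.18 for Slc25a16. Lowest was Slc25a42, which carries coenzyme A, at 0.464 CPM per kb.

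Glutathione enters mitochondria through Slc25a39 and Slc25a40. Slc25a39 was the fourth carrier on the union of exons with 39.7 CPM per kb, or 64.9 over RefSeq-matched exons, and Slc25a40 had 5.88 CPM per kb, or 17.7. Slc25a39 was thus the higher gene under both lengths. The mitoferrins, which bring iron into the matrix for heme and iron-sulfur clusters, were both present. Slc25a37 (mitoferrin 1) had 6.90 CPM per kb and Slc25a28 (mitoferrin 2) had 3.59, but over RefSeq-matched exons the values were close, at 9.95 and 8.77.

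Of the carriers of carboxylic acids, 3 had similar levels. These were Slc25a11 (oxoglutarate and malate) at 15.5, Slc25a1 (citrate) at 14.6 and Slc25a10 (dicarboxylates) at 9.17 CPM per kb. The oxodicarboxylate carrier Slc25a21 had 0.231 CPM, or at least 27 reads in all. The carnitine and acylcarnitine carrier Slc25a20, which feeds fatty acid oxidation, had 5.49 CPM per kb, or 14.9 over RefSeq-matched exons.

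Among 9 carriers of amino acids, 8 were at 1 CPM or more. The aspartate and glutamate carriers of the malate-aspartate shuttle are Slc25a13 (citrin) and Slc25a12 (aralar). Slc25a13 had 23.2 CPM per kb and Slc25a12 had 6.68, a ratio of 3.47, and the ratio was 3.65 over RefSeq-matched exons and 2.25 with the median transcript. Slc25a44, a carrier of branched-chain amino acids, had 19.0 CPM per kb. The ornithine carrier Slc25a15 had 4.59 and the glycine carrier Slc25a38, needed for heme synthesis, 3.91 CPM per kb. The glutamate carriers Slc25a22 and Slc25a18 had 1.22 and 0.672 CPM per kb, and Slc25a29 (basic amino acids) had 0.643. With the median transcript as length, Slc25a22 had 9.87 CPM per kb. The second ornithine carrier Slc25a2 had 0.139 CPM, or at least 16 reads.

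Uncoupling proteins let protons or other ions pass the inner membrane, and Ucp1 does so in brown fat to make heat. Ucp1, Ucp2 and Ucp3 were all under 1 CPM in B16F10 cells. Ucp1 (chromosome 8, 83290352 on the plus strand) had a single read in 1 of the 6 libraries. Ucp3 had between 4 and 22 reads in all. Ucp2, which is widely expressed in other tissues, had 0.159 CPM, which requires at least 16 reads over the 6 libraries. The related Slc25a14, Slc25a30 and Slc25a27 were present, at 5.27, 3.31 and 2.24 CPM per kb. Ucp1, Ucp2 and Ucp3 thus each lay below all of these relatives.

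Slc25a46 of the outer mitochondrial membrane, which takes part in the shaping and fusion of mitochondria, had 24.5 CPM per kb, or 30.4 over RefSeq-matched exons. Of the 8 members whose substrate is not settled, 4 were under 1 CPM. The other 4, Slc25a45, Slc25a43, Slc25a47 and Slc25a35, had 1.65, 1.52, 0.897 and 0.646 CPM per kb. Over RefSeq-matched exons the first 2 turned in order, with 1.84 for Slc25a45 and 2.43 for Slc25a43. Slc25a34 (0.964 CPM) and Slc25a53 (0.828 CPM) had at least 112 and 102 reads in all, Slc25a54 had between 7 and 337, and Slc25a48 had 2 reads in 1 library. The average sets no close upper limit on the totals given as at least a number, since the reads could lie in few libraries. This class held 0.640% of the summed CPM per kb of the family.

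**Figure D3:**
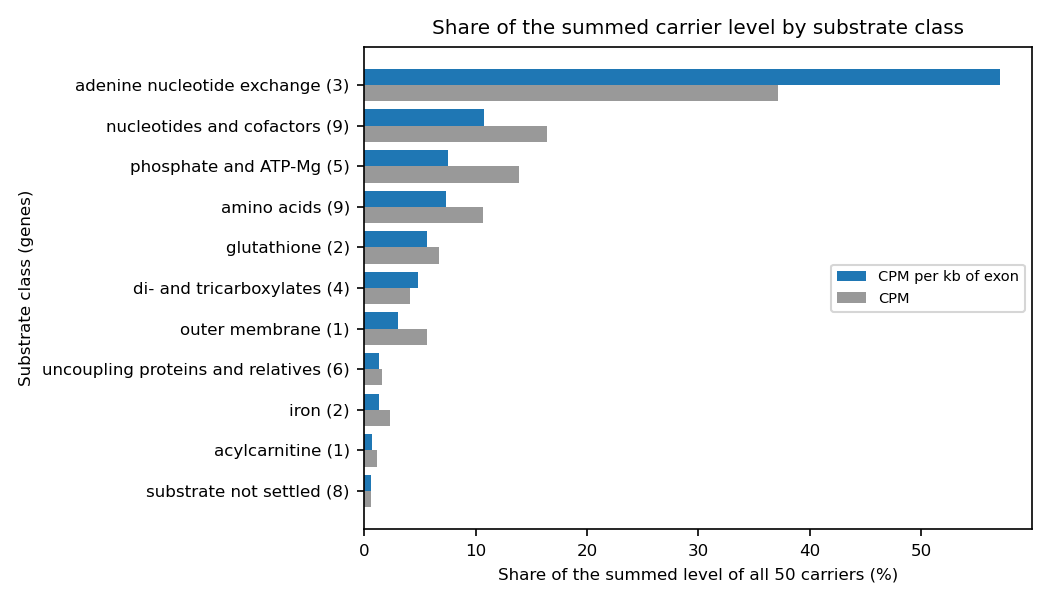
Share of the summed level of all 50 carriers held by each substrate class, in percent, with blue bars for CPM per kb of exon and grey bars for CPM not divided by length; the number of genes in each class is in parentheses. The ADP/ATP carriers hold 57.1% per kb and 37.2% of CPM, the largest share on both scales.

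Coding sequences had a median of 945 bases, and 41 of the 50 lay between 850 and 1200 bases. Slc25a12 and Slc25a13, with 2031 and 2028 coding bases, and Slc25a23, Slc25a24 and Slc25a25, with 1401, 1425 and 1542, were longer, and are known for a calcium-binding part before the repeats. Slc25a54 (1419 bases) and Slc25a46 (1254 bases) were the other carriers over 1200 bases. Coding sequences of all 1225 pairs of carriers were aligned from end to end. Identity had a median of 46.7%, and 16 pairs were over 60%. Closest were Slc25a5 and Slc25a4 (77.4%), Ucp2 and Ucp3 (73.7%) and Slc25a13 and Slc25a12 (70.6%). In 9 of the 16 pairs both genes were at 1 CPM or more, and their levels per kb differed by 1.39-fold to 3.47-fold (median 1.87-fold), against a median of 3.94-fold over all 741 such pairs. With the median transcript as length, the 9 pairs differed by 1.05-fold to 14.7-fold (median 2.12-fold), against a median of 4.67-fold. Over RefSeq-matched exons they differed by 1.13-fold to 3.80-fold (median 1.40-fold), against 3.54-fold. The glutamate carriers Slc25a22 and Slc25a18 (68.1% identity) differed by 1.82-fold, by 3.80-fold over RefSeq-matched exons and by 14.7-fold with the median transcript. Slc25a14 and Slc25a30 (64.0% identity) differed by 1.59-fold, but with the median transcript as length Slc25a30 was the higher. The other 7 pairs had a gene under 1 CPM, so the ratios above leave them out. On the union of exons, Slc25a24 was 198-fold above Slc25a54, and Slc25a15 was 45.3-fold above Slc25a2. Slc25a4 and Slc25a5 were 1297-fold and 2426-fold above Slc25a31. In these pairs one gene was present and the other was under 1 CPM. The remaining pairs were those of Ucp1, Ucp2 and Ucp3, in which none was present. Their ratios were 1.22-fold to 1.49-fold, from few reads.

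**Figure D4:**
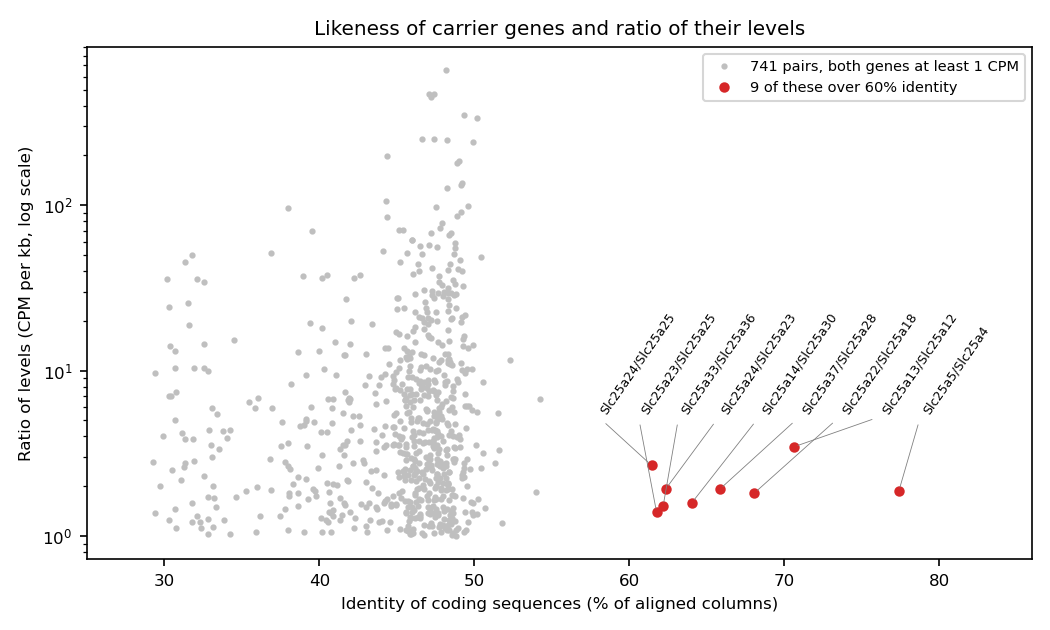
Identity of the coding sequences of 741 pairs of carriers with both genes at 1 CPM or more (x axis, percent of aligned columns) and the ratio of their levels in CPM per kb (y axis, log scale, the higher over the lower). The 9 pairs over 60% identity, in red and named, have ratios from 1.39 to 3.47 with the union of exons plotted here, and from 1.05 to 14.7 with the median transcript as length.

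Likeness bears on the levels because a read that fits 2 genes cannot be assigned, and how such reads were counted is not given in the sources used here. The longest stretch that the coding sequences of Slc25a5 and Slc25a4 shared without a mismatch was 20 bases, and that of Ucp2 and Ucp3 was 24 bases. They are shown as the longest exact matches of the pairs with the highest identity, in lower case since no part is marked.

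Slc25a5 and Slc25a4, coding bases 322 to 341 of Slc25a5: cagttctggcgctactttgc
Ucp2 and Ucp3, coding bases 556 to 579 of Ucp2: aatgccattgtcaactgtgctgag

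Both stretches are far shorter than the reads of 150 bases. Over whole transcripts, 47 of the 50 carriers had no stretch of 150 bases in common with a transcript of any other gene in GENCODE. Exceptions were Slc25a36 (5.00% of its windows, with the pseudogene Gm13217), Slc25a37 (5.79%, with Gm16867) and Slc25a40 (5.62%, with the pseudogene Gm5066). These are shares of the windows in the transcript compared, not of reads, and the effect on the levels was not measured. This search counted only exact matches. In addition, 8 carriers overlapped another annotated gene on the same strand, most of them small RNA genes, and 25 overlapped some gene on either strand.

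Carriers that lie within 100 kb of each other formed 5 pairs. On chromosome X, Slc25a43 (36743659 to 36777202) lies 18.4 kb before Slc25a5 on the same strand. Slc25a5 was 200-fold higher than Slc25a43 per kb, or 166-fold over RefSeq-matched exons. On chromosome 3, Slc25a54 ends 6.46 kb before Slc25a24, with 67.1% coding identity. Slc25a24 had 8.40 CPM per kb, whereas Slc25a54 had 0.0424 CPM per kb, from 7 to 337 reads in all. On chromosome 17, Slc25a41 and Slc25a23 lie 2.06 kb apart on the minus strand, with 2 or 4 reads in all for the first and 4.36 CPM per kb for the second. On chromosome 7, Ucp3 and Ucp2 lie 6.90 kb apart, and both were under 1 CPM. By their GENCODE extents, Slc25a29 and Slc25a47 face away from each other on chromosome 12 with 162 bases between them. Their RefSeq promoter windows lie further apart, at 108835827 to 108836126 for Slc25a29 and 108850879 to 108851178 for Slc25a47. Slc25a29 had 0.643 CPM per kb and Slc25a47 had 0.897.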

How the data were processed

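Total RNA of B16F10 cells (3 OLO and 3 OZO libraries, grouped by title) had been made into directional libraries and sequenced. The authors aligned reads to mm10 with HISAT2 (2.1.0), counted them with featureCounts (2.1.1) and used limma-voom (3.58.1), per the methods and processing notes. The methods name a UCSC assembly file and TPM scaling for the StringTie step, whose values were not used. For the counts and limma-voom, the strand setting, annotation and library scaling are not given in the sources used here. From the deposited table only the average log2 CPM over all 6 libraries was used. Its other columns of numbers, the authors' own comparison of OZO with OLO, were not used, so the planned test of OZO against OLO was not made.

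Genes without reads share the lowest average. With the 0.5 reads that voom adds, it gave a geometric mean of scaled library sizes of 19641946. The depth of each library is unknown. For carriers under 1 CPM, the average gave the product over libraries of 2 times the reads plus 1, from which all possible totals were listed. These calculations were tested on simulated counts. Lengths and positions came from GENCODE M21 (GRCm38), which held 23882 of the 27179 genes. Promoters came from RefSeq. Coding sequences were compared in bases in place of the planned proteins, by global alignment (Biopython 1.88, Python 3.11.15).

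Members and lists were chosen with earlier results of these data known. Genes named were the highest and lowest of each class, those under 1 CPM, the first 10 per kb and pairs over 60% coding identity, and further members to account for the family. The value of 1 member is not reported here, though counts and sums hold it. Pairs of neighbours and the shared stretches were chosen after values were seen. Alternatives were other gene lengths, CPM limits and background genes.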

Additional observations from a re-analysis of the deposited data

How the results depend on the processing

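No paired analysis was possible because the value used is 1 average over all libraries. For the same reason the planned test of OZO against OLO, its other normalization, filter and pseudocount, and leaving out each library were not run, nor was a protein alignment with another matrix.

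At 0.5 CPM 41 carriers were present and at 2 CPM 37, in place of 39. Of the genes with at least 1 read, 65.4% lay below the median carrier, and of those with a symbol 71.8%, in place of 73.1%. The ADP/ATP carriers held 55.6% of the summed level with the longest transcript, 36.1% with the median transcript, 50.1% with RefSeq-matched exons (chosen after seeing the data) and 37.2% without division by length, in place of 57.1%. They were the class with the largest share each time. Of the first 10 carriers, 10, 8 and 10 remained among the first 10 with the longest transcript, the median transcript and RefSeq-matched exons, and Slc25a5 was first throughout. Slc25a5 stood 66.2-fold, 38.3-fold and 61.8-fold above the median carrier with the same 3 lengths, in place of 73.4-fold. Of 49 neighbours in the order, 24 kept their order under all 4 lengths and 25 did not. The spread between libraries could not be set against these differences.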
